A study of Mus musculus with 60 samples.

Results

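A set of 9 genes of the brain's vessel wall, 6 of endothelial cells (Cldn5, Pecam1, Flt1, Kdr, Slc2a1 and Abcb1a) and 3 of mural cells (Pdgfrb, Rgs5 and Vtn), were followed through RNA-seq of whole brain tissue from PON2-deficient and wild-type mice. They were chosen by gene symbol, and all 9 were found among the 20423 genes of the deposited counts. The study compared male and female homozygous PON2-deficient mice with wild-type littermates, all C57BL/6J in background and born to heterozygous parents. The mice were killed at 3 to 4 months of age, after behavioural tests. Cortex, striatum and cerebellum were each measured in 5 libraries per sex and genotype, 60 libraries in 12 groups, so that a genotype within a region rested on 10 libraries. The labels name no cell type to which the PON2 deficiency is limited, so effects of its loss in vessel cells and in the rest of the mouse cannot be told apart. Nothing in the labels says whether libraries with the same number in different regions came from 1 mouse. Tests over all 60 libraries may therefore have counted a mouse more than once. All p-values reflect only how far these samples spread, which may be technical.

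Brain capillaries are tubes of endothelial cells sealed by tight junctions, with pericytes embedded in their outer wall and smooth muscle cells around arterioles and arteries. Endothelial cells of the blood-brain barrier carry nutrients in through transporters and pump many drugs back out. Vascular endothelial growth factor (VEGF) acts on them through the receptors KDR and FLT1, and platelet-derived growth factor B, released by endothelial cells, recruits and keeps pericytes through PDGFRB. Paraoxonase 2 (PON2) is a membrane-bound lactonase of mitochondria and the endoplasmic reticulum with antioxidant activity.

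The promoters of 4 endothelial members are shown because the levels of Cldn5, Kdr and Flt1 varied together from library to library in cerebellum, as described further on, while Slc2a1 had negative correlations with Cldn5 in each region. Each window is 150 bases long and ends 41 bases before the RefSeq start (GRCm38.p6, 5′ to 3′ on the gene's strand). Capitals mark GGAA on either strand (TTCC when read on the printed strand), the core that ETS factors bind, a family with many endothelial regulators.
Cldn5, chr16:18776657-18776806, plus strand: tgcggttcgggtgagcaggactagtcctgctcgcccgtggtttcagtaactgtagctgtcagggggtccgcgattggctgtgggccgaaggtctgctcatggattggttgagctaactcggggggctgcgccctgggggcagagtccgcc
Kdr, chr5:75978496-75978645, minus strand: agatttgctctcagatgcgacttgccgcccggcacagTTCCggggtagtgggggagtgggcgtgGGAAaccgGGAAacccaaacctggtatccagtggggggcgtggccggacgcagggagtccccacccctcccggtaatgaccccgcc
Flt1, chr5:147726052-147726201, minus strand: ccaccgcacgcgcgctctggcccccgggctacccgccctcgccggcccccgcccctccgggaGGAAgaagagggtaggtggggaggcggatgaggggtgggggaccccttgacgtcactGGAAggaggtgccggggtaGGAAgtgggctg
Slc2a1, chr4:119108555-119108704, plus strand: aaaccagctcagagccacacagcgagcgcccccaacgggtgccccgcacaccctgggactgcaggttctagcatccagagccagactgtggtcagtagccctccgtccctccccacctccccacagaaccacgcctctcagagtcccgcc
The Kdr and Flt1 windows held 3 matches each and the Cldn5 and Slc2a1 windows 0. GGAA is a short motif: 81.1% of the 32851 promoter windows of this length held it, with a median of 2 matches. A match is a description of the letters and not a binding site. Of the 9 members, 7 were matched in the RefSeq promoter table.

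In GRCm38 (GENCODE M21 annotation), the endothelial members span chr16:18776847-18778262 (Cldn5), chr11:106654217-106750628 (Pecam1), chr5:147561604-147726011 (Flt1), chr5:75932827-75978458 (Kdr), chr4:119108711-119137983 (Slc2a1) and chr5:8660077-8748575 (Abcb1a). The mural members Rgs5 and Vtn span chr1:169655501-169695813 and chr11:78499091-78502324. All 9 are protein-coding genes.

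Pon2 was measured first, since it checks the genotype labels. It lay between 39.2 and 58.9 CPM (read counts scaled to a common library total) in the 30 wild-type libraries and between 0.457 and 6.91 CPM in the 30 PON2-deficient libraries, so the groups did not overlap in any region. Library totals were 26091910 to 28125224 counts, and the lowest count of a member in any library was 191 (Kdr), for which counting error alone gives a coefficient of variation of 7.24%. The library of PON2-deficient male 5 in striatum stood apart: the precision weights the authors deposited for it averaged 0.0527 of the median striatal library. It held the highest Cldn5 level of all 60 libraries (61.7 CPM) and the lowest Kdr (7.51 CPM) and Pdgfrb (13.9 CPM) levels, and striatal results are given with and without it where it matters. In whole tissue, fewer vessel cells and less RNA per vessel cell cannot be told apart.

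All 9 members were readily detected in every library, with region means between 12.1 and 98.0 CPM, and no member was confined to a region. Levels per kilobase of exon allow a rough comparison between genes. The length was that of all annotated exons of a gene, not of the transcripts present, and the order depends on this choice. The highest cortical level was that of Vtn (vitronectin, an adhesive protein of the extracellular matrix that pericytes make in the brain), at 33.7 ± 3.70 CPM per kb (SD, n = 20). Slc2a1, the glucose transporter GLUT1 of the barrier, followed at 26.2 ± 3.27 CPM per kb (SD, n = 20). Cldn5, the main claudin of endothelial tight junctions, stood at 23.2 ± 4.28 CPM per kb, and Rgs5, a regulator of G protein signalling abundant in pericytes, at 18.4 ± 1.56 CPM per kb (SD, n = 20 each). The other 5 lay far lower per kilobase. Abcb1a, the drug efflux pump P-glycoprotein, was at 5.94 CPM per kb, the VEGF receptor Flt1 at 4.30, the PDGF receptor Pdgfrb at 3.96, the adhesion molecule Pecam1 (CD31) at 2.91 and the main VEGF receptor Kdr at 1.37 CPM per kb. Other brain cells also make some of these genes, glia making Slc2a1 for example, so the order is one of tissue RNA.

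The members differed in how much they scattered among the 5 libraries of a group. Mean coefficients of variation of the CPM levels within a group were 22.3% for Cldn5, 16.4% for Kdr and 16.3% for Pecam1, against a median of 10.3% over 14684 genes with at least 1 CPM in each region. Slc2a1 (10.7%) and Rgs5 (10.3%) lay near that median. Vtn (8.94%), Flt1 (8.71%), Pdgfrb (8.41%) and Abcb1a (7.62%) lay below it. Cldn5 was the most variable member, and in cortex its female libraries spread more than its male ones. The 5 wild-type females were at 37.6, 37.1, 32.1, 23.8 and 20.6 CPM and the 5 PON2-deficient females at 38.6, 40.5, 38.4, 29.7 and 22.5 CPM. In both groups the library numbered 5 was the lowest, and the groups overlapped almost entirely. Male cortical Cldn5 levels were tighter, from 32.4 to 42.5 CPM in wild-type and from 28.4 to 33.3 CPM in PON2-deficient libraries.

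**Figure D1:**
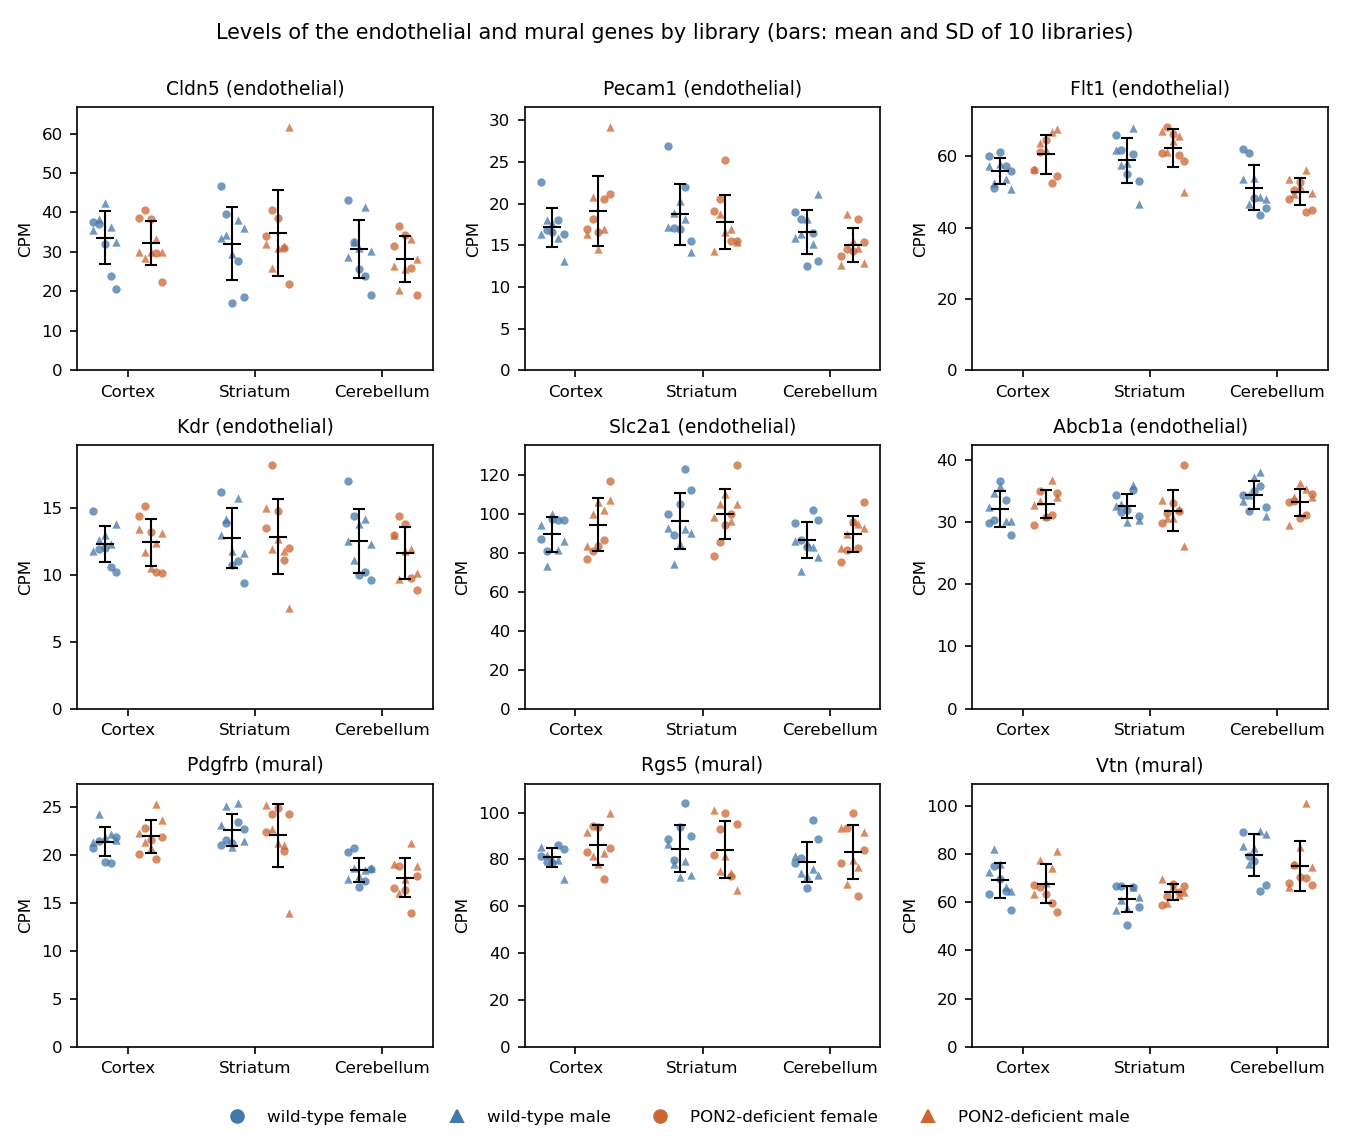
Levels of the 9 genes in CPM (vertical axes, from 0) in each library by region (horizontal axes), with wild-type libraries in blue and PON2-deficient libraries in orange, females as circles and males as triangles, and black bars for the mean and SD of 10 libraries. The genotypes overlap in every panel, and the single high striatal Cldn5 point is the library of PON2-deficient male 5 at 61.7 CPM.

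The first comparison asked whether the loss of PON2 went with a change of these genes in any region. No member passed the test by genotype: 0 of 9 were called in cortex, striatum or cerebellum by edgeR's quasi-likelihood test at an adjusted p under 0.05, and 0 of 9 by DESeq2 or limma. Of all genes, edgeR called 0.0316% of 18972 in cortex, 0.0105% of 18962 in striatum and 0.0321% of 18710 in cerebellum, and DESeq2 1.25%, 0.0369% and 1.3%. At an unadjusted p under 0.05, 1, 0 and 0 members passed, against 11.4%, 4.94% and 11.1% of all genes. The members' median absolute log2 difference was 0.058, 0.06 and 0.077 in the 3 regions, and that of all genes tested was 0.0638, 0.0734 and 0.0664.

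Among endothelial receptors, Flt1, which binds VEGF tightly and exists as a membrane and a soluble decoy form, had the smallest p of the 9 genes. In cortex it measured 50.7 to 61.2 CPM in wild-type libraries (median 56.5) and 52.5 to 67.7 CPM in PON2-deficient libraries (median 61.4). The log2 difference was 0.12 (SE 0.04, adjusted p = 0.311 with edgeR), and the ranges overlapped. Kdr, the receptor through which VEGF drives endothelial growth, had cortical means of 12.3 ± 1.37 CPM (wild-type) and 12.4 ± 1.75 CPM (PON2-deficient; SD, n = 10 each). Its log2 difference was 0.01 in cortex, 0.01 in striatum and -0.10 in cerebellum, with 95% intervals of -0.155 to 0.183, -0.247 to 0.264 and -0.333 to 0.128.

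Barrier members were likewise not called. Cortical Cldn5 averaged 33.6 ± 6.76 CPM in wild-type mice against 32.2 ± 5.55 CPM in PON2-deficient mice, and cerebellar Cldn5 30.8 ± 7.35 against 28.1 ± 5.81 CPM (SD, n = 10 each). In striatum its log2 difference was 0.12 with PON2-deficient male 5 and -0.02 without that library. Its 95% interval in striatum, -0.255 to 0.495, was the widest of the 9 genes. For Abcb1a the log2 differences were 0.03, -0.03 and -0.05 (cortex, striatum, cerebellum), and its cerebellar interval, from -0.141 to 0.045, was the narrowest of the 9 genes there. Slc2a1 had positive log2 differences of 0.07, 0.06 and 0.06 in the 3 regions (adjusted p = 0.754, 0.995 and 0.784 with edgeR). Pecam1, a junctional adhesion molecule used to outline vessels, had log2 differences of 0.16, -0.07 and -0.14 in the same order. The cortical library of PON2-deficient male 5 held the highest Pecam1 level of all 60 libraries, 29.2 CPM, and without it the cortical value was 0.06.

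Mural members did not separate by genotype either. Pdgfrb, a receptor used to mark pericytes, averaged 21.4 ± 1.48 CPM in wild-type against 21.9 ± 1.68 CPM in PON2-deficient cortex. In cerebellum it averaged 18.5 ± 1.26 against 17.6 ± 2.02 CPM (SD, n = 10 each). In striatum its log2 difference was -0.04 with PON2-deficient male 5 and 0.02 without it. Rgs5 had log2 differences of 0.09, -0.01 and 0.08, and the striatal value was 0.02 without PON2-deficient male 5. Vtn had log2 differences of -0.03, 0.07 and -0.08. All adjusted p-values of the 3 mural genes were at least 0.531 with edgeR. The genotype effect was not shown to differ between regions for any member either: 0 of 9 were called for the difference of the genotype effects, and 0 of 9 had an unadjusted p under 0.05, with edgeR over all 60 libraries. In those 3 comparisons 0.0%, 0.0147% and 0.00981% of 20387 genes were called, for striatum against cortex, cerebellum against cortex and cerebellum against striatum, and 6.3%, 4.15% and 5.97% had an unadjusted p under 0.05.

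**Figure D2:**
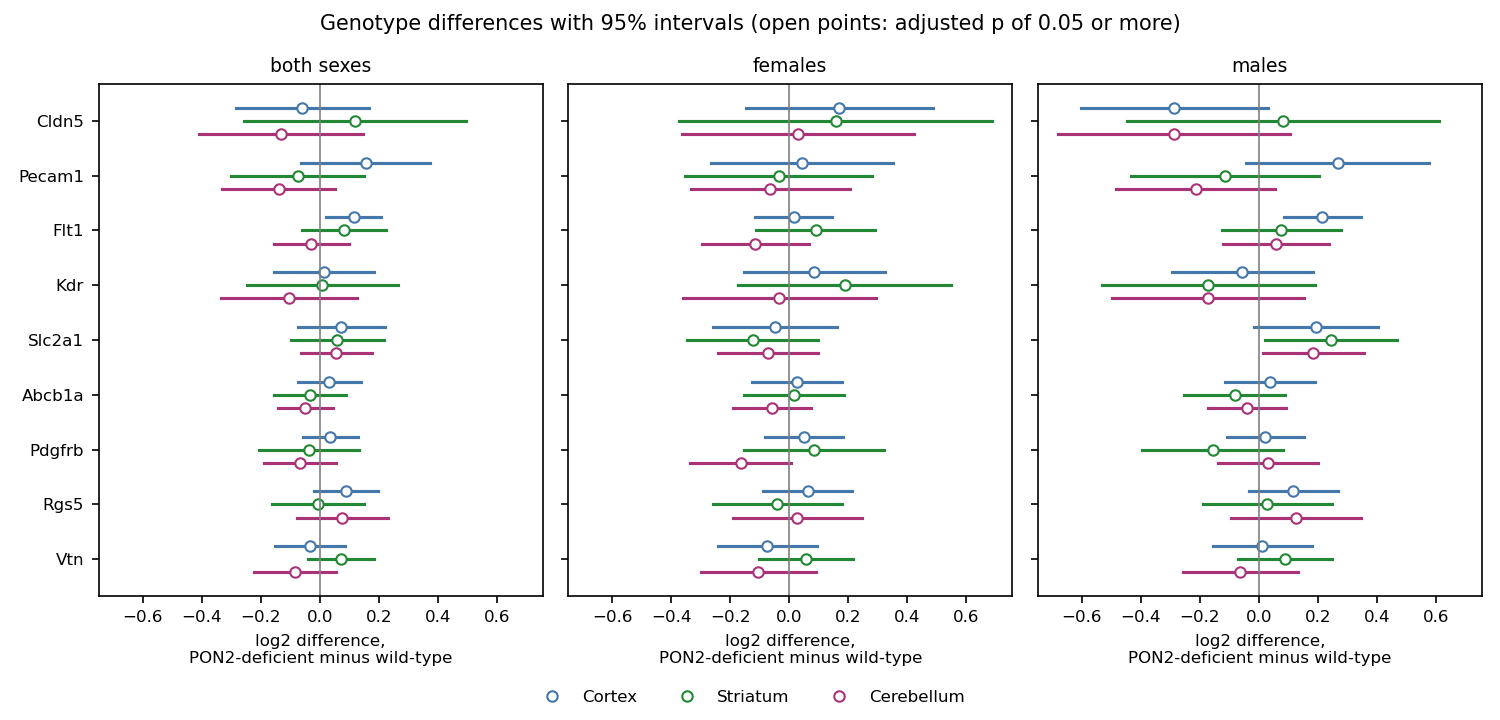
Log2 differences, PON2-deficient minus wild-type (horizontal axis), with 95% intervals for the 9 genes in cortex (blue), striatum (green) and cerebellum (purple), over both sexes, in females and in males. Open points mark an adjusted p of 0.05 or more, which is every point; in males the 3 Slc2a1 values, 0.19, 0.24 and 0.18, lie on one side of 0.

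Within each sex, Slc2a1 showed the same layout in the 3 regions without passing the test. Cortical levels in the 5 PON2-deficient males were 83.6, 100, 106, 102 and 107 CPM, and in the 5 wild-type males 94.2, 73.2, 99.7, 81.6 and 86.2 CPM. In striatum the PON2-deficient males lay between 96.4 and 110 CPM and the wild-type males between 74.0 and 92.9 CPM, which did not overlap; this held for 0.823% of all genes in that comparison. In cerebellum the ranges were 82.2 to 96.2 and 70.4 to 85.8 CPM. PON2-deficient males thus had the higher mean in each region.

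The male log2 differences of Slc2a1 were 0.19 in cortex, 0.24 in striatum and 0.18 in cerebellum, and the female ones were -0.05, -0.12 and -0.07. None was called: the adjusted p in males was 0.398, 0.792 and 0.425 with edgeR. The male and female effects differed by 0.24, 0.37 and 0.26 on the log2 scale, with unadjusted p of 0.105, 0.0247 and 0.0386 and adjusted p of at least 0.618 with edgeR. Slc2a1 levels of same-numbered libraries moved together across regions, as given further on, so the 3 regions were not independent repeats of this layout.

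Flt1 and Cldn5 had their smallest within-sex p-values in male cortex. Flt1 in male cortex measured 56.4, 63.6, 61.7, 66.8 and 67.7 CPM in PON2-deficient and 57.1, 52.5, 57.8, 53.6 and 50.7 CPM in wild-type libraries. Only the lowest PON2-deficient library lay within the wild-type range. The log2 difference was 0.22 (SE 0.06, adjusted p = 0.124 with edgeR), and DESeq2, which called 2.28% of all genes in this comparison, called it at an adjusted p of 0.038. Cldn5 in male cortex had a log2 difference of -0.29 (adjusted p = 0.413 with edgeR), and in female cortex one of 0.17 (adjusted p = 0.898 with edgeR). Over females, males and their difference, edgeR called 0 of 9 members in each region. In females it called 0.00527%, 0.00527% and 0.00534% of genes in cortex, striatum and cerebellum, in males 0.148%, 0.00527% and 0.016%, and for the difference 0.0% in each. At an unadjusted p under 0.05, 0 members passed in females of any region, 1 in males of each region (Flt1 in cortex, Slc2a1 in striatum and cerebellum), and 2, 1 and 1 for the difference between the sexes. The shares of all genes at that p were 6.6%, 4.08% and 5.16% in females, 14%, 5.96% and 10.6% in males and 9.56%, 4.31% and 4.73% for the difference.

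Sex itself separated no member. Males and females differed in 0 of 9 members with edgeR and with DESeq2. In cortex, striatum and cerebellum edgeR called 0.0896%, 0.105% and 0.118% of all genes, and DESeq2 0.422%, 0.311% and 0.235%. At an unadjusted p under 0.05, 2, 1 and 1 members passed, against 10.5%, 7.82% and 7.24% of all genes. Vtn was among them in cortex, at 72.5 ± 6.78 CPM in males and 64.1 ± 5.80 CPM in females (SD, n = 10 each, adjusted p = 0.266 with edgeR), and in cerebellum, at 82.0 ± 9.76 and 72.8 ± 7.41 CPM (adjusted p = 0.581 with edgeR). In striatum the Vtn means of the sexes were 62.7 and 62.8 CPM. Rgs5 in striatum measured 78.8 ± 9.34 CPM in males and 90.0 ± 9.56 CPM in females (SD, n = 10 each, adjusted p = 0.536 with edgeR).

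Region differences were clearer than genotype differences, but small. The test of regions took the 60 libraries as independent. A replicate block across regions added calls for Cldn5 and Slc2a1, as given further on. Between cerebellum and cortex, 4 of 9 members were called by edgeR over all 60 libraries, a share to be read against 79.6% of the 20387 genes. Between cerebellum and striatum 5 of 9 were called, against 79.8%, and between striatum and cortex 1 of 9, against 57.0%. At an unadjusted p under 0.05, 80.5%, 80.6% and 60.9% of all genes passed. The members' median absolute log2 differences were 0.157, 0.183 and 0.043, and those of all genes 0.46, 0.464 and 0.21.

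Vtn was the only member called higher in cerebellum. It measured 64.6 to 101 CPM in cerebellum (mean 77.4 ± 9.67, SD, n = 20), 55.9 to 81.9 CPM in cortex (68.3 ± 7.50) and 50.6 to 69.4 CPM in striatum (62.7 ± 4.70). All 3 steps were called, with log2 differences of 0.18 between cerebellum and cortex (adjusted p = 0.000205 with edgeR), 0.30 between cerebellum and striatum (adjusted p = 1.27e-08) and -0.12 between striatum and cortex (adjusted p = 0.014). The last lost its call without the libraries numbered 2 (adjusted p = 0.154 with edgeR) or numbered 3 (adjusted p = 0.0767).

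Pdgfrb ran the other way. Cerebellar levels lay between 14.0 and 21.2 CPM (mean 18.0 ± 1.69, SD, n = 20), cortical levels between 19.2 and 25.3 CPM (21.7 ± 1.56) and striatal levels between 13.9 and 25.4 CPM (22.3 ± 2.57). It was lower in cerebellum by a log2 difference of -0.26 against cortex (adjusted p = 4.61e-07 with edgeR) and -0.31 against striatum (adjusted p = 1.5e-08). Of the 3 mural genes, 1 was therefore higher in cerebellum (Vtn) and 1 lower (Pdgfrb). The third, Rgs5, was not called at 81.0 ± 10.0 CPM in cerebellum and 83.4 ± 7.10 CPM in cortex (SD, n = 20 each). The mural genes did not share a direction.

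Flt1 and Pecam1 were lower in cerebellum than in both other regions. Flt1 had means of 58.1 ± 5.05 CPM in cortex, 60.5 ± 5.95 in striatum and 50.6 ± 5.07 in cerebellum (SD, n = 20), with log2 differences of -0.20 against cortex (adjusted p = 3.33e-05 with edgeR) and -0.26 against striatum (adjusted p = 2.36e-07). Pecam1 had means of 18.1 ± 3.45, 18.2 ± 3.39 and 15.8 ± 2.42 CPM (SD, n = 20), with log2 differences of -0.20 (adjusted p = 0.0154 with edgeR) and -0.21 (adjusted p = 0.0113). The Pecam1 call against striatum was lost without the libraries numbered 1 (adjusted p = 0.0501 with edgeR) or 3 (adjusted p = 0.0767). Slc2a1 was lower in cerebellum (88.1 ± 9.12 CPM) than in striatum (98.0 ± 13.3 CPM; log2 difference -0.15, adjusted p = 0.00577 with edgeR), and cortex lay between them and was called against neither. For each of these 3 genes striatum and cortex were not called apart.

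Cldn5, Kdr, Abcb1a and Rgs5 were not called between any 2 regions by this test. Abcb1a, the member with the smallest spread within groups, measured 32.5 ± 2.57 CPM in cortex, 32.2 ± 2.67 in striatum and 33.8 ± 2.25 in cerebellum (SD, n = 20). Cldn5 had cerebellar values of 19.1 to 43.2 CPM around a mean of 29.5, and its log2 differences of -0.16 against cortex and -0.18 against striatum carried intervals of -0.375 to 0.061 and -0.401 to 0.035.

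**Figure D3:**
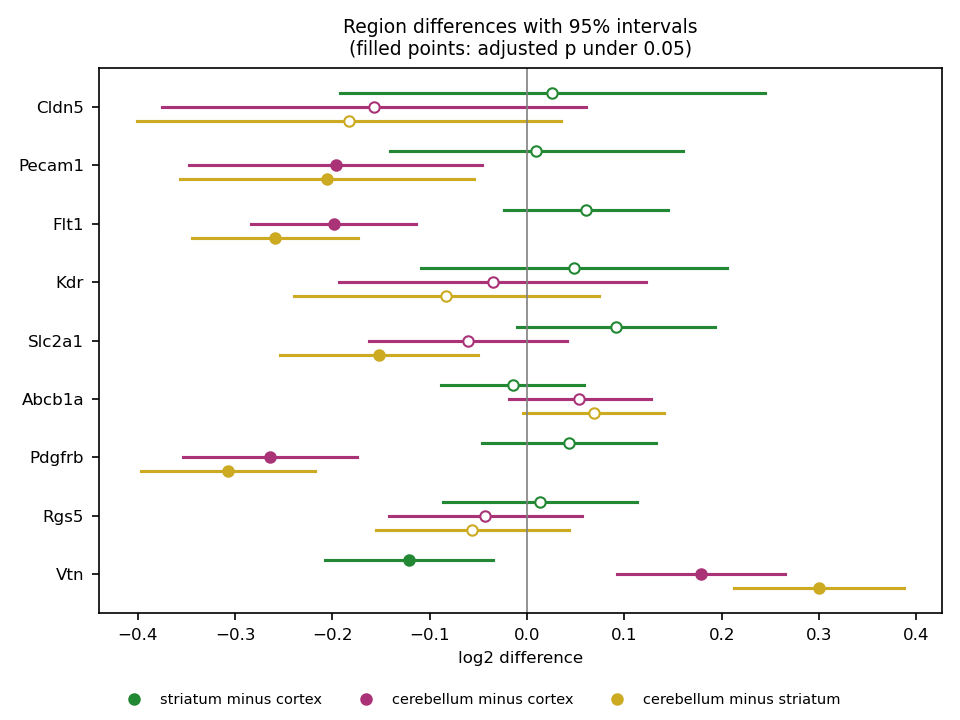
Log2 differences between regions (horizontal axis) with 95% intervals for the 9 genes: striatum minus cortex (green), cerebellum minus cortex (purple) and cerebellum minus striatum (yellow), with filled points where the adjusted p was under 0.05. Vtn lies right of 0 and Pecam1, Flt1 and Pdgfrb left of 0 in both cerebellar comparisons.

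The scatter of some members repeated across regions. Deviations from the group mean on the log2 CPM scale were compared between libraries of the same sex, genotype and number, 27 relations over 20 such pairs each. For Slc2a1, Pearson's r was 0.79 between cortex and striatum, 0.77 between cortex and cerebellum and 0.77 between striatum and cerebellum (permutation p = 7e-05, 0.00012 and 0.0001, adjusted p = 0.00047, 0.0005 and 0.0005; Spearman's rho 0.66, 0.68 and 0.69, permutation p = 0.0021, 0.0013 and 0.00098, adjusted p = 0.0063, 0.0043 and 0.0038). Without the 2 libraries farthest from the median r was 0.72, 0.64 and 0.60. The PON2-deficient female 5 library had the highest Slc2a1 level of each region, 117, 125 and 106 CPM in cortex, striatum and cerebellum. The wild-type male 2 library had the lowest of each region, 73.2, 74.0 and 70.4 CPM.

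Cldn5 repeated in the same way. Its r was 0.83 between cortex and cerebellum (rho 0.81, permutation p = 1e-05, the smallest that 100000 permutations can give, and 7e-05, adjusted p = 0.00013 and 0.00047), 0.74 between striatum and cerebellum (rho 0.72, permutation p = 0.00016 and 0.00049, adjusted p = 0.00054 and 0.0026) and 0.55 between cortex and striatum (rho 0.47, permutation p = 0.011 and 0.038, adjusted p = 0.027 and 0.087). Without the 2 farthest libraries these were 0.71, 0.75 and 0.34, so the last rested on them. Wild-type female 1 measured 37.6, 46.6 and 43.2 CPM in cortex, striatum and cerebellum, and wild-type female 5 measured 20.6, 18.7 and 19.2 CPM. A library high in Cldn5 in 1 region tended to have a high namesake in the others.

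Kdr and Rgs5 had the same tendency between cerebellum and each other region, and Pdgfrb between cortex and cerebellum. Between cortex and striatum r was 0.45 for Kdr (rho 0.39, permutation p = 0.044 and 0.091, adjusted p = 0.092 and 0.18) and 0.43 for Rgs5 (rho 0.46, permutation p = 0.059 and 0.045, adjusted p = 0.11 and 0.093), which did not pass adjustment. For Kdr r was 0.73 between cortex and cerebellum and 0.75 between striatum and cerebellum (rho 0.71 and 0.81, permutation p of r = 0.00029 and 0.00013, adjusted p = 0.00087 and 0.0005; permutation p of rho = 0.00057 and 5e-05, adjusted p = 0.0026 and 0.00045), and without the 2 farthest libraries 0.59 and 0.76. For Rgs5 r was 0.83 and 0.58 (rho 0.83 and 0.62, permutation p of r = 1e-05 and 0.0071, adjusted p = 0.00013 and 0.019; permutation p of rho = 2e-05 and 0.004, adjusted p = 0.00027 and 0.0099), and without the 2 farthest libraries 0.76 and 0.39. Pdgfrb had r of 0.78 between cortex and cerebellum (rho 0.82, permutation p = 5e-05 and 2e-05, adjusted p = 0.00045 and 0.00027; 0.77 without the 2 farthest libraries), but 0.02 between cortex and striatum and 0.06 between striatum and cerebellum.

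Flt1, Pecam1, Abcb1a and Vtn had no r that passed adjustment, and their 12 values lay between -0.30 and 0.50. The largest, Flt1 between striatum and cerebellum (permutation p = 0.024, adjusted p = 0.055), had a rho of 0.64 that did pass (permutation p = 0.003, adjusted p = 0.0082). Over 14684 genes the median r was 0.04, 0.05 and 0.07 for cortex with striatum, cortex with cerebellum and striatum with cerebellum, and the 95th percentile 0.5, 0.54 and 0.5. Above those percentiles lay all 3 values of Slc2a1 and of Cldn5, the cerebellar values of Kdr and Rgs5, and the cortex with cerebellum value of Pdgfrb. Leaving out PON2-deficient male 5, an alternative chosen after the data were seen, raised the cortex with striatum r from 0.55 to 0.64 for Cldn5, from 0.45 to 0.63 for Kdr and from 0.43 to 0.70 for Rgs5.

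**Figure D4:**
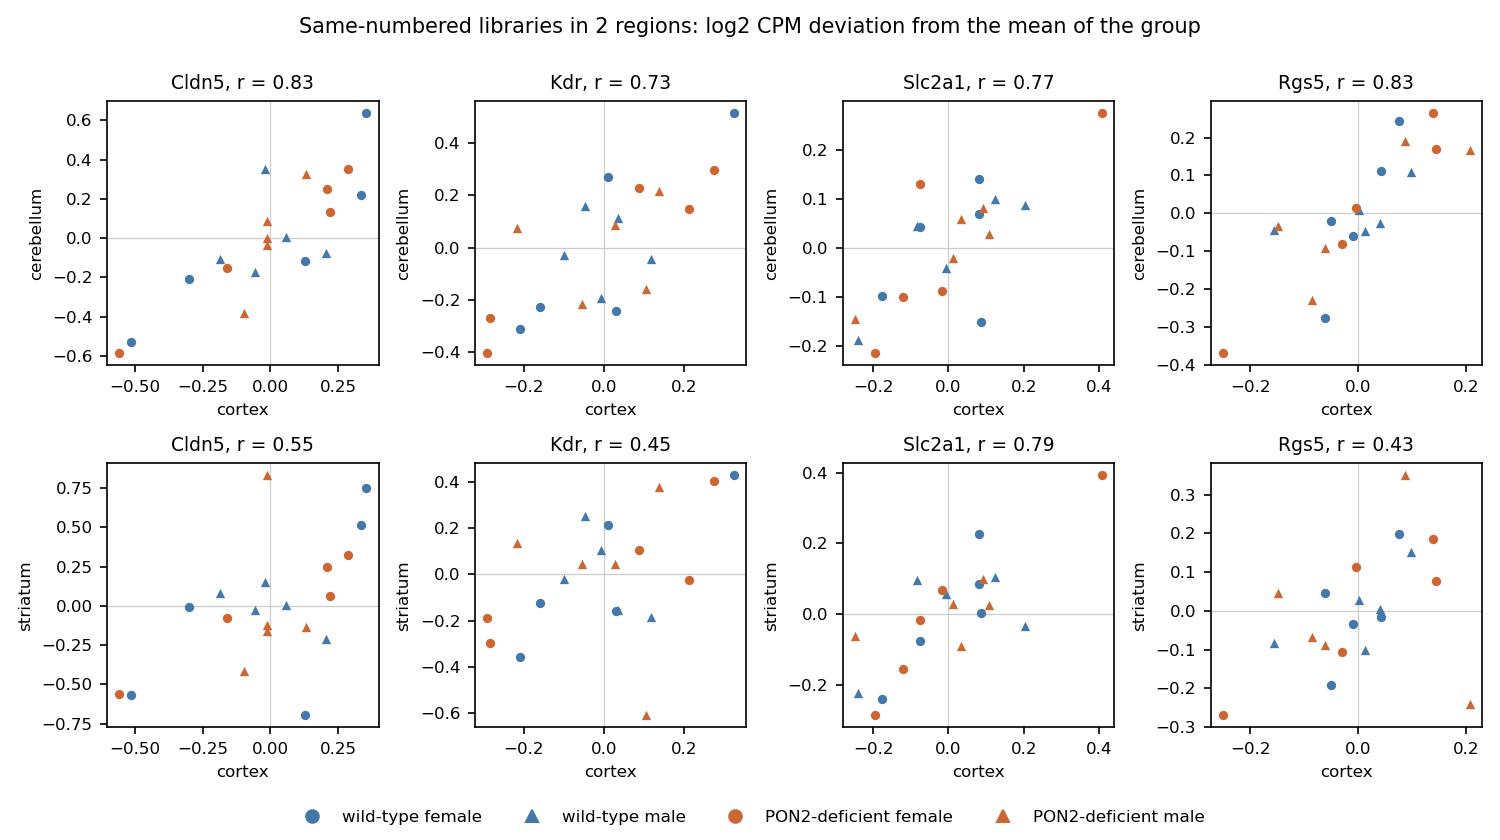
Log2 CPM deviations from the mean of the group in cortex (horizontal axes) against those of the same-numbered library in cerebellum (upper row) and striatum (lower row), for Cldn5, Kdr, Slc2a1 and Rgs5, 20 points per panel. Points rise from lower left to upper right in the upper row, with r from 0.73 to 0.83, and in the lower row the striatal library of PON2-deficient male 5 is the highest Cldn5 point (0.83) and the lowest Kdr point (-0.61).

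Within a region, not all endothelial members varied together. Of the 36 pairs of members, 2 in cortex, 6 in striatum and 5 in cerebellum passed adjustment over 108 relations, each over the 20 libraries of a region. The share among pairs of all genes was not computed, so these counts give no comparison with other genes. Several of the pairs that passed were among Cldn5 and the VEGF receptors, and others joined an endothelial with a mural member. The latter were Cldn5 with Vtn in cortex and cerebellum (r 0.62 each) and Flt1 with Vtn in cerebellum (0.60). In striatum they were Pdgfrb with Flt1 (0.61), Kdr (0.66) and Abcb1a (0.69), and Abcb1a with Rgs5 (0.61). Without PON2-deficient male 5 the striatal values were 0.42, 0.47, 0.58 and 0.53. Of these mixed pairs, rho passed adjustment only for Abcb1a with Pdgfrb (0.67). Cldn5 with Kdr had r of 0.75 in cortex and 0.86 in cerebellum (rho 0.68 and 0.86, permutation p of r = 0.00012 and 1e-05, adjusted p = 0.0032 and 0.00036; permutation p of rho = 0.0011 and 1e-05, adjusted p = 0.02 and 0.00036), and 0.65 and 0.78 without the 2 farthest libraries. In cerebellum Cldn5 with Flt1 had r of 0.70 (rho 0.69, permutation p = 0.00067 and 0.00096, adjusted p = 0.011 and 0.02), and 0.60 without the 2 farthest libraries. In striatum Cldn5 with Kdr was at 0.24, and 0.67 without PON2-deficient male 5, where Cldn5 was highest and Kdr lowest. Flt1 with Kdr had r of 0.83 in striatum and 0.85 in cerebellum (rho 0.87 and 0.87, permutation p = 1e-05 for each r and rho, adjusted p = 0.00036 each), and 0.83 and 0.79 without the 2 farthest libraries. For the mural genes, Pdgfrb with Rgs5 had r of 0.72 in striatum (rho 0.70, permutation p = 0.00029 and 0.00084, adjusted p = 0.0063 and 0.02), and 0.60 without the 2 farthest libraries.

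Slc2a1 stood apart from Cldn5 although both belong to the barrier endothelium: their r was -0.56, -0.40 and -0.27 in cortex, striatum and cerebellum, and none passed adjustment (permutation p = 0.011, 0.077 and 0.25, adjusted p = 0.079, 0.23 and 0.46; rho -0.45, -0.38 and -0.31, permutation p = 0.05, 0.093 and 0.18, adjusted p = 0.22, 0.28 and 0.41). Without the 2 farthest libraries r was -0.31, -0.50 and -0.14. Ranked by its mean r with the other 8 members over the 3 regions, Flt1 was 8th of 14684 genes and Kdr 27th, while Slc2a1 was 8519th. Vtn was 43rd, Pdgfrb 85th, Abcb1a 293rd, Rgs5 332nd, Cldn5 748th and Pecam1 988th. Without the striatal library of PON2-deficient male 5 Cldn5 was 113th.

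The 12 other genes most like the 9 members by the same measure, the mean r over members and regions with 20 libraries each, were She, Tie1, Tek, Nos3, Eng, Cd93, Cdh5, Pik3c2b, Tgm2, Lamc3, Ptprb and Cyyr1. Their mean r lay between 0.342 and 0.407. The median over all genes was -0.0039, and the 12 lay above it by the way they were chosen. Of the 12, 9 were again among the 12 without the striatal library of PON2-deficient male 5. The vessel lists described next held 6 of them. Of the 14684 genes ranked, 124 were list genes, and 17 of these were among the 100 genes most like the members.

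A wider set of 128 vessel genes in 9 lists placed the members in context. By genotype, edgeR called 0 of 127 in cortex, 0 of 126 in striatum and 0 of 128 in cerebellum, and 11, 4 and 20 had an unadjusted p under 0.05, where 11.4%, 4.94% and 11.1% of all genes did. DESeq2 called 1, 0 and 4, against 1.25%, 0.0369% and 1.3% of all genes. These 5 genes, named after their values were seen, were Tmsb10 in cortex (log2 difference -0.19, DESeq2 adjusted p = 0.00798), and in cerebellum the smooth muscle genes Tagln (-0.33, adjusted p = 0.00902) and Myh11 (-0.36, adjusted p = 0.0461), the Notch ligand Dll4 of arterial and sprouting endothelium (-0.60, adjusted p = 0.0132) and the Wnt target Axin2 (-0.25, adjusted p = 0.0278).

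Among the 9 vessel lists, the contractile genes of smooth muscle had the largest median genotype difference in cerebellum, -0.23 on the log2 scale over 10 genes. Of these, 9 had a negative difference, 5 an unadjusted p under 0.05 (against 11.1% of all genes) and 0 an adjusted p under 0.05 with edgeR (against 0.0321%). Tagln (transgelin, an actin-binding protein) measured 8.43 ± 1.54 CPM in PON2-deficient and 10.6 ± 1.69 CPM in wild-type cerebellum, and Myh11 (the smooth muscle myosin heavy chain) 10.5 ± 2.63 and 13.4 ± 2.00 CPM (SD, n = 10 each). Their edgeR adjusted p was 0.104 and 0.166. Of 20 edgeR fits that each left out 1 cerebellar library, only 1 called a gene of this list. It was the fit without PON2-deficient male 4, where Tagln had an adjusted p of 0.0461. Beside them, the summed levels of 11 meningeal fibroblast markers were 229 to 300 CPM (median 273) in wild-type and 164 to 303 CPM (median 213) in PON2-deficient cerebellum. Those of 12 choroid plexus markers were 583 to 2290 (median 1440) and 40.1 to 2740 CPM (median 829). The median log2 differences of these marker lists were -0.213 (11 of 11 negative) and -0.345 (12 of 12 negative). In cortex the same medians were -0.157 (8 of 11 negative) and -0.878 (12 of 12 negative). In striatum they were -0.016 (7 of 11 negative) and -0.057 (7 of 12 negative). With the choroid plexus marker mean as a covariate, edgeR again called no smooth muscle gene by genotype in cerebellum. As 0 were called without the covariate, this count could not show a loss of calls. The parts of choroid plexus and of meningeal fibroblasts in the smooth muscle values were not tested. In cortex the smooth muscle list had a median of 0.001, with 5 of 10 genes negative, and in striatum one of -0.055, with 9 of 9 negative. The striatal median was -0.248 in females and 0.12 in males, and edgeR called none of the 9 genes there, with 0 at an unadjusted p under 0.05 over both sexes, 1 in females and 0 in males. The mural members Pdgfrb, Rgs5 and Vtn, which mark pericytes more than contractile cells, had cerebellar differences of -0.07, 0.08 and -0.08.

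**Figure D5:**
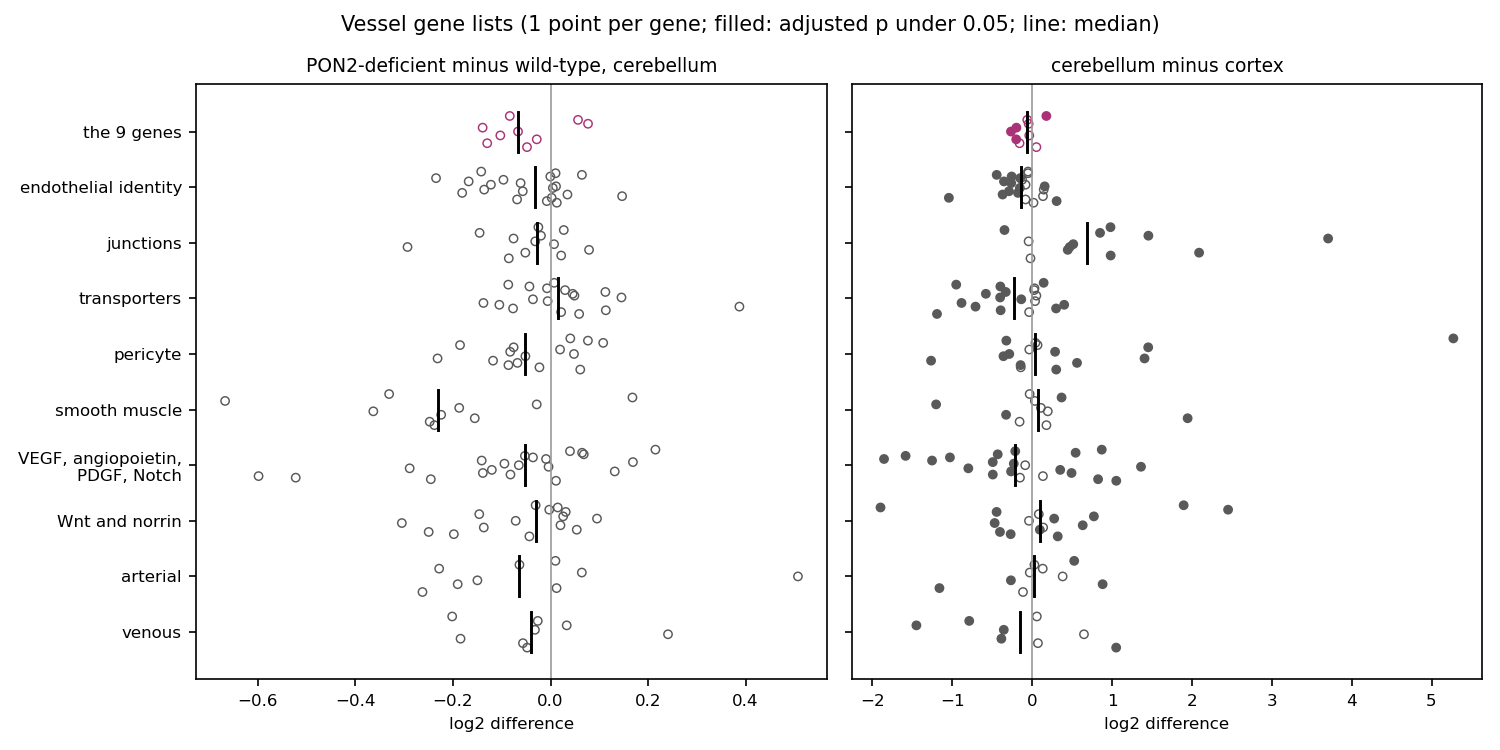
Log2 differences (horizontal axes, on different scales) of the 9 genes and of 9 lists of vessel genes, by genotype in cerebellum (left) and between cerebellum and cortex (right), with 1 point per gene, filled where the adjusted p was under 0.05, and a line at the median. No point is filled on the left, and on the right the 9 genes span -0.26 to 0.18 while junction genes reach 3.71.

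Between cerebellum and cortex 39 of 128 list genes were called higher and 50 lower, 69.5% in all, which is below the 79.6% of all genes. Their median absolute log2 difference was 0.349, against 0.46 for all genes and 0.157 for the members. The counts of single lists that follow are to be read against the same 79.6%. Of 20 endothelial identity genes 2 were higher and 10 lower (12 of 20 called), with a median log2 difference of -0.14. The largest was Egfl7, an endothelial matrix protein, at 13.0 CPM in cerebellum and 26.8 in cortex (log2 difference -1.04, adjusted p = 3.21e-26 with edgeR). Sox18 (-0.44), Eng (-0.37) and Podxl (-0.35) followed.

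Of the junction genes other than Cldn5, 9 of 12 were higher and 1 was lower in cerebellum (83.3% called). Marveld2 (tricellulin, which seals the corners where 3 cells meet) had a log2 difference of 3.71, Cgnl1 of 2.09, Ocln (occludin) of 1.46 and Cgn (cingulin) of 0.98, while Cldn5 was not called at -0.16. Epithelia also make Marveld2, Ocln and Cgn, the choroid plexus among them. The choroid plexus marker sum was 24.1 to 497 CPM in wild-type cortex and 583 to 2290 CPM in wild-type cerebellum, and its part in the junction values was not tested.

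Among 18 barrier transporters, 3 were higher and 10 lower in cerebellum (72.2% called). Abcb1b, the second P-glycoprotein gene of mice, had a log2 difference of -1.19, and its paralog Abcb1a, the endothelial form among the members, one of 0.05 (adjusted p = 0.169 with edgeR). Reads from the 2 copies could have been split between them in the counting. Slco2b1 (-0.95) and the lysophospholipid carrier Mfsd2a (-0.71) were also lower.

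Ligands of the member receptors moved between regions as well. Vegfa, the ligand of Kdr and Flt1, was higher in cerebellum, at 101 ± 8.05 CPM against 69.0 ± 5.78 in cortex (SD, n = 20; log2 difference 0.54, adjusted p = 4.39e-16 with edgeR), where Flt1 was lower and Kdr was not called. Pdgfb, the ligand of Pdgfrb, was lower at 11.4 ± 1.67 against 34.2 ± 4.87 CPM (log2 difference -1.58, adjusted p = 2e-30 with edgeR). The VEGF co-receptors Nrp1 (-1.25) and Nrp2 (-1.85) were lower and the hypoxia factor Hif1a (1.36) higher. Vegfa falls outside the rule for named genes and was added, with its values known, as the ligand of 2 members. In the list of VEGF, angiopoietin, PDGF and Notch signalling, 7 of 21 genes were higher and 11 lower. Neurons and glia also make many of these genes.

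Among the Wnt and norrin genes that induce and keep the barrier, 7 of 15 were higher and 5 lower in cerebellum. Wnt7a (log2 difference 2.45) and Ndp (norrin, 0.77) were higher and Wnt7b (-1.90) lower, so that the 2 Wnt7 ligands ran in opposite directions.

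The mural lists were mixed, as were the mural members. Of 15 pericyte genes 6 were higher and 5 lower, with Mcam (1.45) and Ecm2 (1.41) higher and Cspg4 (NG2, shared with oligodendrocyte precursors) lower at -1.26. Zic1, at 5.27, is also a transcription factor of cerebellar granule neurons. Of 10 smooth muscle genes 2 were higher and 2 lower, with Des (desmin) at 1.95, Sncg at 0.37, Mylk at -1.20 and Lmod1 at -0.33. Of 9 arterial genes 2 were higher and 2 lower, and of 8 venous genes 1 was higher (Ackr1, 1.05) and 4 lower, with Tmsb10 at -1.45 and Vcam1 at -0.79.

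Between striatum and cortex, where 1 of the 9 members was called, 30 of 128 list genes were higher and 38 lower in striatum, 53.1% in all, near the 57.0% of all genes. The pericyte gene Mcam was higher there as well (log2 difference 0.69, adjusted p = 8.38e-17 with edgeR), and the arterial list gene Mgp was lower (-1.02, adjusted p = 1.46e-17). Summed marker levels of the tissue's other cells also differed by region. Meningeal fibroblast markers ran from 117 to 352 CPM in wild-type cortex and from 50.7 to 93.8 CPM in wild-type striatum. Red blood cell markers ran from 199 to 704 CPM in cortex, 156 to 523 CPM in striatum and 265 to 950 CPM in cerebellum. No marker of these lists was under 0.1 CPM, and their part in the levels of the 9 genes was not tested.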

How the data were processed

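RNA from 30 to 50 mg of pulverised frozen tissue was sequenced as 150 nt read pairs, per the labels' protocols. The submitters' processing notes name Salmon, edgeR and limma, without versions. Of the authors' genome build and annotation, the sources used here give nothing. The authors deposited expected counts per gene (estimates that need not be whole), log2 CPM, which equal limma's voom formula to within 5.33e-14, and voom precision weights, a score per gene and library. Symbols and exon lengths were taken from GENCODE M21 (GRCm38); 99.9% of the Ensembl IDs matched, and promoters from RefSeq (GRCm38.p6).

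Counts were rounded and fitted with edgeR 4.0.16 (R 4.3.3; TMM, filterByExpr, 2-sided quasi-likelihood tests), 1 fit of 20 libraries per region over the 4 groups of sex and genotype, and 1 of all 60 libraries for region differences. Benjamini-Hochberg adjustment ran over all genes tested, with a threshold of 0.05. CPM used TMM sizes over all 60 libraries, and log2 CPM a prior count of 2. Correlations used 100000 2-sided permutations of the deviations over all 20 libraries, not within groups. The centring on group means was not allowed for, so these p-values may be too small. No 2 libraries were identical (highest correlation 0.983). Alternatives were DESeq2 1.42.0, limma 3.58.1 on the deposited values, other scaling, no filter, blocks, a choroid plexus covariate and left-out libraries. The fits were tested on simulated data. The members, the 9 vessel lists, the marker lists and the naming rule (all members, up to 4 called genes per list, the 12 most alike genes) were chosen with earlier results of these data known; genes named outside the rule are said to be so beside their values. Some list genes that the rule would name are not reported here.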

Additional observations from a re-analysis of the deposited data

Results flagged for a closer look

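In 4 of the 108 groups of 5 libraries (9 genes in 12 groups) a single library lay far from the other 4 and chance flags about 1 group in 20. Cldn5 measured 61.7 CPM in striatal PON2-deficient male 5, where the next library was at 31.9 and the lowest at 25.9 CPM. Pecam1 measured 22.6 CPM in cortical wild-type female 1, with the next at 18.0 CPM. Slc2a1 measured 117 CPM in cortical PON2-deficient female 5, with the next at 86.7 CPM, and that library's namesakes were the highest of striatum and cerebellum too. Pdgfrb measured 24.3 CPM in cortical wild-type male 2, with the next at 22.2 CPM.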

How the results depend on the processing

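The genotype comparisons kept 0 of 9 members called under every alternative run, except that DESeq2 called 1 in cortical males (Flt1, adjusted p = 0.038). Between striatum and cortex, where 1 member was called, the replicate block across regions called 2, and leaving out libraries called 0 to 2 (0 without the libraries numbered 2 or 3; 2 without those numbered 5, when Flt1 was called at an adjusted p of 0.0271). The counts for cerebellum against cortex and against striatum stayed within 1.5 times of the reported ones, but the members called changed. The replicate block across regions added Cldn5 in both and Slc2a1 against cortex. Pecam1 was lost against striatum without the libraries numbered 1 or 3.

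Signs changed only for log2 differences that were called in neither setting. With a choroid plexus covariate, Abcb1a by genotype in cortex was -0.0022 and Kdr in striatum -0.0082. Rgs5 by genotype in striatum was 0.0021 with limma on the deposited values and 0.0022 with sample quality weights. Cldn5 between striatum and cortex was -0.061 with limma on the deposited values and -0.0016 with the replicate block across regions. With libraries left out, the genotype differences ranged from -0.025 to 0.06 for Kdr in cortex, in striatum from -0.016 to 0.23 for Cldn5, -0.049 to 0.07 for Kdr, -0.08 to 0.021 for Pdgfrb and -0.06 to 0.024 for Rgs5, and from -0.06 to 0.0079 for Flt1 in cerebellum. The striatum minus cortex differences ranged from -0.052 to 0.1 for Cldn5, -0.055 to 0.1 for Pecam1, -0.04 to 0.004 for Abcb1a and -0.0031 to 0.04 for Rgs5, and the cerebellum minus cortex difference of Kdr from -0.05 to 0.0063. The causes were not tested. Of the vessel list counts, 3 moved between regions: endothelial identity genes between cerebellum and striatum (7 in place of 11, without the libraries numbered 2), transporters (6 in place of 10, without those numbered 1) and venous genes (2 in place of 4, without those numbered 4) between striatum and cortex.

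Same-numbered libraries of the 2 genotypes had residual correlations over 0.1 in 0, 2 and 1 of 10 pairs in cortex, striatum and cerebellum. Those of different regions had them in 3 to 5 of 20. The numbers are not shown to pair samples by this check, which had no comparison with differently numbered libraries. Deviations of Slc2a1, Cldn5, Kdr, Rgs5 and Pdgfrb nevertheless repeated by number between some regions, as given above. The replicate block within sex changed no member's call by genotype. The replicate block across regions added calls for Cldn5 in cerebellum (-0.17 against cortex, adjusted p = 0.0141, and -0.17 against striatum, adjusted p = 0.0151) and for Slc2a1 (0.09 in striatum against cortex, adjusted p = 0.00338, and -0.06 in cerebellum against cortex, adjusted p = 0.0477), all with edgeR. The labels give no batch per sample. The 27 region means moved by less than 1 SD with DESeq2 size factors and on the deposited log2 scale, and the 27 correlations kept their sign without PON2-deficient male 5, though that raised the cortex with striatum r of Kdr from 0.45 to 0.63 and of Rgs5 from 0.43 to 0.70. Counting error was largest for Kdr, up to 7.24% in a library, against a mean spread of 16.4% within groups.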
